A study of Mus musculus with 24 samples.

Results

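A set of 8 genes known as markers of cerebellar Purkinje cells was followed through 24 RNA-seq libraries of mouse brain: Pcp2, Pcp4, Calb1, Itpr1, Car8, Ppp1r17, Rgs8 and Icmt. They were taken by symbol, as 8 of the 46078 Ensembl gene identifiers in the deposited table, and all 8 passed the filter on low values (a mean of at least 10) that left 18267 genes. The untreated C57BL/6N mice were wild type (WT) or knock-out for Shank2 (KO). Each genotype was sampled at postnatal day 14 (P14) and at postnatal day 25 (P25), with 6 libraries in each of the 4 groups. In every group the labels assign 3 libraries to a second batch, and the unmarked 3 were taken as the first. The study describes its tissue as whole brain, but the cerebellar genes below go against this in most libraries; the labels name no region, and they do not say which exons the knock-out lacks.

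Purkinje cells are the large inhibitory neurons that carry the output of the cerebellar cortex to the deep nuclei. They receive parallel fibre synapses from granule neurons, the most numerous neurons of the cerebellum, and climbing fibre synapses from the inferior olive. At parallel fibre synapses, glutamate acts on the metabotropic receptor mGluR1, whose G protein drives phospholipase C; the inositol trisphosphate that it makes opens receptors on the endoplasmic reticulum and releases calcium. Shank2, a scaffold protein of excitatory synapses, is known to sit in the postsynaptic density of Purkinje cells.

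Several of the markers serve that calcium signal. Itpr1 encodes the inositol trisphosphate receptor itself, and Car8 a carbonic anhydrase relative without enzyme activity that binds this receptor. Calb1 encodes calbindin, a buffer of calcium ions, and Pcp4 a small protein that binds calmodulin. Others act on G proteins and kinases: Pcp2 is a modulator of inhibitory G proteins, Rgs8 speeds the shutting off of G proteins, and Ppp1r17, also called G-substrate, is a target of cGMP-dependent kinase that inhibits protein phosphatases. Icmt encodes the enzyme that methylates the carboxyl end of prenylated proteins.

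On GRCm38 with the GENCODE M21 annotation, all 8 are protein-coding genes. Pcp2 lies on chromosome 8 from 3623371 to 3625545 (minus strand), Pcp4 on chromosome 16 from 96467606 to 96525793 (plus strand) and Ppp1r17 on chromosome 6 from 56017497 to 56032689 (plus strand). Itpr1 is also on chromosome 6, from 108213096 to 108551109 (plus strand), and Rgs8 is on chromosome 1 from 153653025 to 153700323 (plus strand). Chromosome 4 holds the remaining members: Car8 from 8143362 to 8239041 (minus strand), Calb1 from 15881264 to 15908064 (plus strand) and Icmt from 152297227 to 152307121 (plus strand). Pcp2 overlaps Pet100, Icmt overlaps Rnf207 and Rgs8 overlaps the antisense gene Gm29529, each on the opposite strand, and Pcp4 overlaps Igsf5 on its own strand. Whether reads were counted by strand is not stated, so those of these pairs cannot be told apart where exons overlap.

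RefSeq promoter windows on GRCm38 were at hand for 4 of the 8 members (9 windows for Pcp2, Pcp4, Rgs8 and Icmt). Below are the 250 bases before the outermost Pcp2 start and before the Pcp4 start, shown because these genes stand at the opposite ends of the results that follow: Pcp2 is nearly absent where Cbln3 is low, and Pcp4 is not. The windows are chr8:3625548-3625797 (minus strand) and chr16:96467356-96467605 (plus strand), 5′ to 3′, and capitals mark AGGTCA or its reverse complement, the half-site of the nuclear receptor RORA, a transcription factor of Purkinje cells.
Pcp2: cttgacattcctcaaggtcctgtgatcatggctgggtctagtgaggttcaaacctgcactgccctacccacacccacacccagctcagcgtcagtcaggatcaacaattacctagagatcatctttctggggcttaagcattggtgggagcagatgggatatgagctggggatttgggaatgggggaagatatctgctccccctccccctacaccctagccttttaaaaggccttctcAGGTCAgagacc
Pcp4: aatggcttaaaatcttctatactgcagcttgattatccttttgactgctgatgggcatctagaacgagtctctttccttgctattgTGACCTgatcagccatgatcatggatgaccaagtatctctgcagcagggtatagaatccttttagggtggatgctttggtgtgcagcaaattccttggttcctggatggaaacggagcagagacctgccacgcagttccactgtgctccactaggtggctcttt
In Pcp2 the letters run from base −12 to −7, counted back from the start. In Pcp4 they are on the opposite strand, from base −164 to −159. On either strand, AGGTCA was found in 5 of the 9 member windows, of which 2 overlapping Pcp2 windows share 1 match; it was found in 14.02% of all 32851 mouse windows. The palindromic EBF motif was in 0 of the 9 and in 0.78% of all windows. A match describes the letters and shows no binding.

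Most of the markers were high where genes of cerebellar granule neurons were high and low elsewhere. The libraries were graded by Cbln3, a cerebellin gene of granule neurons that is not among the markers, on the scale of the deposited values (reads divided by a size factor, called normalised reads here). Cbln3 was under 100 in 15 libraries (18.3 to 51.8), between 100 and 20000 in 3 (P25 WT replicate 3, P14 WT replicate 3 and P14 KO replicate 1) and above 20000 in 6 (25148 to 61110). The highest value below the upper limit was 10664 and the lowest above it was 25148. All 6 libraries of the top grade are from P25, WT replicates 4, 5 and 6 and KO replicates 2, 5 and 6, and all but KO replicate 2 are from the second batch. The bottom grade holds 5 P14 WT, 5 P14 KO, 2 P25 WT and 3 P25 KO libraries. Ratios between these grades therefore mix age with Cbln3. In bulk tissue, fewer Purkinje cells and less marker RNA per cell cannot be told apart.

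Pcp2, Ppp1r17 and Car8 were very low where Cbln3 was low. Pcp2 had a lowest value of 8.7, a median of 16.8 and a highest of 36.1 normalised reads in the 15 libraries with Cbln3 under 100. It was 183 in P25 WT replicate 3, 917 in P14 WT replicate 3 and 1211 in P14 KO replicate 1. In the top grade it was 1773 at the lowest, 3392 at the median and 3815 at the highest. The grades did not overlap, and the median of the top grade was 191-fold that of the bottom grade.

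Ppp1r17 went from a median of 23.5 (5.2 to 93.7) to 6840 (4331 to 8430), a 279.8-fold ratio of medians and the highest of the 8. Car8 went from 530.5 (219 to 837) to 48460 (24930 to 57797), or 91.2-fold. By this ratio Ppp1r17 ranked 10, Pcp2 ranked 18 and Car8 ranked 34 among 18267 genes. Car8 thus kept a higher floor than Pcp2 and Ppp1r17 in the libraries with little Cbln3.

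Itpr1, Rgs8, Calb1 and Icmt had a floor where Cbln3 was low as well as a peak where Cbln3 was high. Itpr1 had a median of 7745 (3135 to 18097) in the bottom grade and 111134 (60300 to 128732) in the top grade, or 14.3-fold. In the P25 libraries of the bottom grade it ran from 7931 to 18097, so its ratio would be smaller within P25. Rgs8 went from 2934 (1371 to 4519) to 48483 (21910 to 58972), or 16.5-fold. These neuronal genes are known to be expressed in forebrain too, and the grades still did not overlap.

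Calb1 had medians of 4089 (787 to 5800) and 28704 (17080 to 34249), a ratio of 7.02. Icmt had medians of 2525 (2127 to 2927) and 20323 (9978 to 24561), a ratio of 8.05. Icmt had the narrowest range of the 8 within the bottom grade.

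Pcp4 went against its label as a Purkinje marker in these libraries. Its bottom-grade median was 357 (209 to 931) and its top-grade median 629 (538 to 710), a ratio of 1.76 with overlapping grades, and its highest value of all 24 libraries was in P25 WT replicate 1, with a Cbln3 of 21.2. Among 18267 genes it ranked 2573 by this ratio. Of the 8 markers, 7 did not overlap between the grades, beside a background of 10.9% of all genes, and 5 reached 10-fold, beside 1.35%. The median ratio was 15.43 over the members and 0.994 over all genes. The grades were set on Cbln3 and the markers were chosen with earlier results of these data known, so these counts carry no test. They also mix age with Cbln3, since most bottom-grade libraries are from P14 and all top-grade ones from P25.

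**Figure D1:**
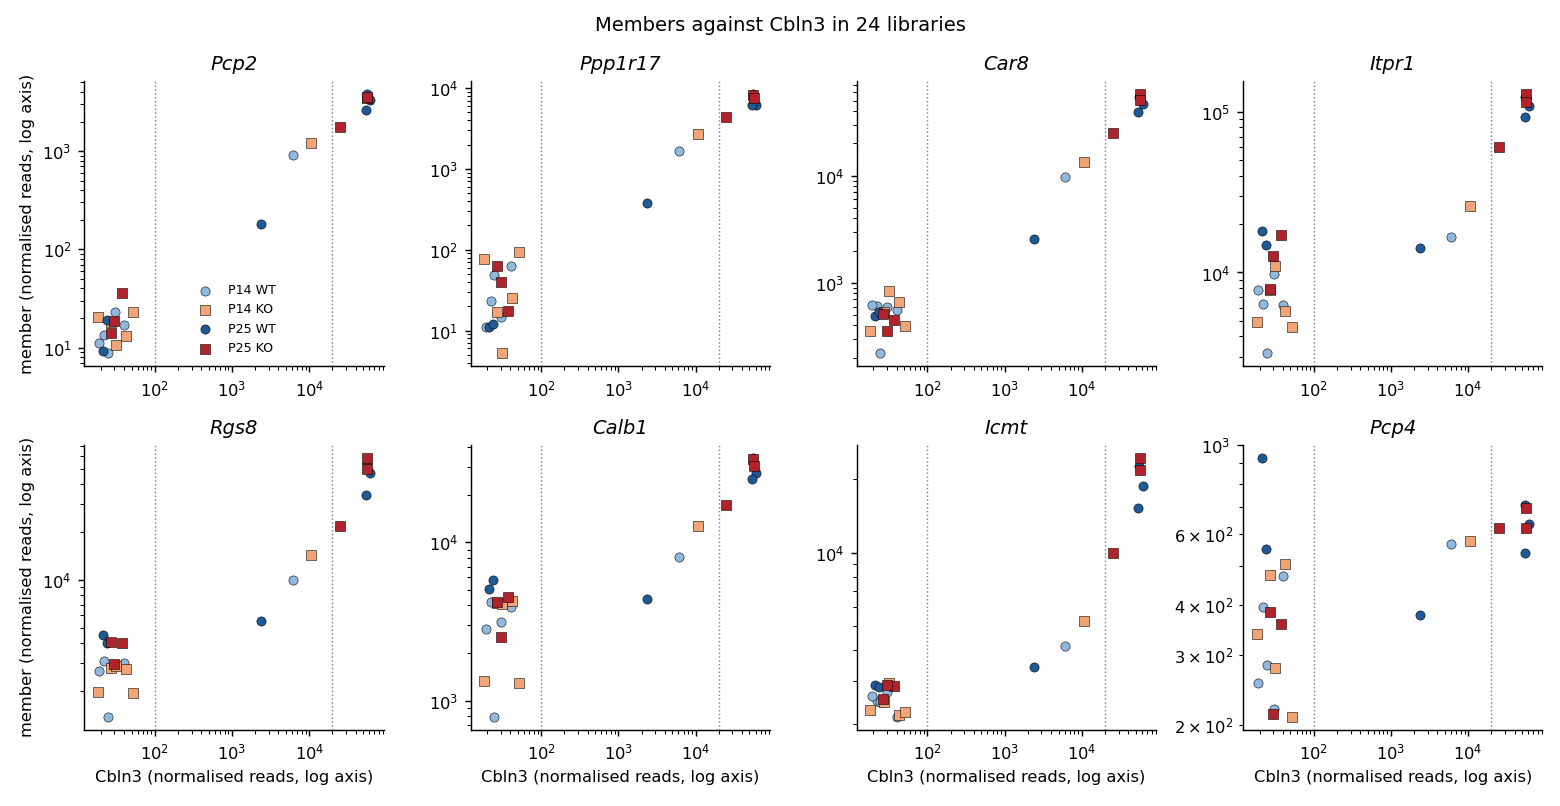
Each panel plots 1 marker (normalised reads, log axis) against Cbln3 (normalised reads, log axis) in the 24 libraries; circles are WT, squares KO, light colours P14 and dark colours P25, and dotted lines mark Cbln3 of 100 and 20000. Pcp2 climbs from 8.7 to 36.1 in the libraries on the left to 1773 to 3815 on the right, while Pcp4 reaches 931 on the left and 710 on the right.

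Levels can be compared between genes only per length of exon. Per kilobase of exon, Car8 had the highest median in the top grade, 12577 normalised reads per kilobase. Itpr1 (6067), Calb1 (5923), Rgs8 (5029), Ppp1r17 (3893) and Icmt (3844) followed, then Pcp2 (1856) and Pcp4 (613). Car8 was the highest in each of the 6 libraries, but ranges over the libraries overlapped between neighbours down to Pcp2, and Pcp4 lay below the rest. Itpr1 had the most reads of the markers as counted, but its exons add up to 18319 bases against 3853 for Car8.

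**Figure D2:**
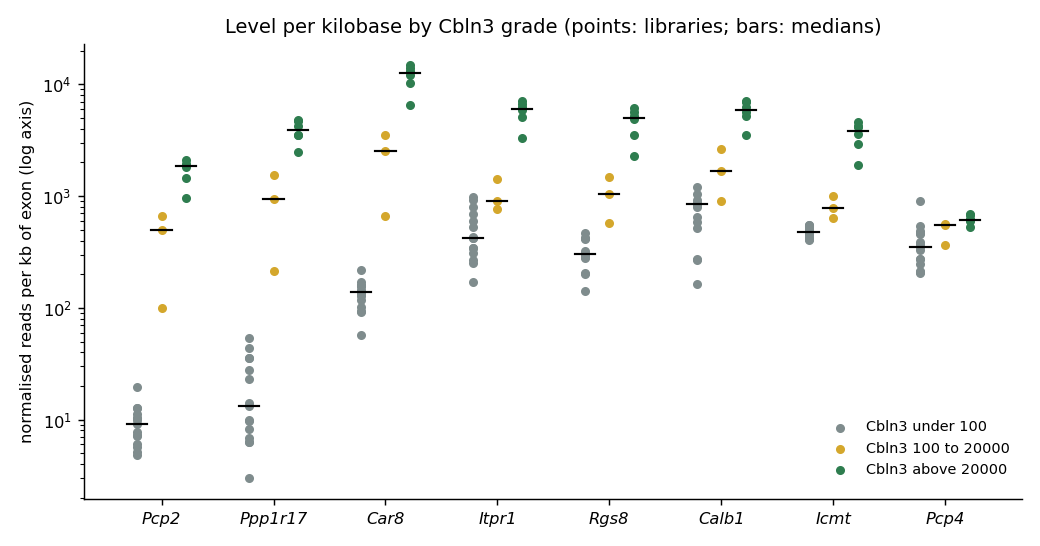
Normalised reads per kilobase of exon (log axis) for each marker; points are libraries, coloured by Cbln3 grade, and bars are medians. In the top grade Car8 is highest at a median of 12577 and Pcp4 lowest at 613, and only Pcp4 has overlapping bottom and top grades.

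Within the bottom grade, the extremes of Calb1 and Pcp4 fell in libraries that stood apart on forebrain lists. The olfactory bulb list (mean log2 level relative to its mean over all libraries) stood at 3.77 to 4.70 in 4 libraries (P25 KO replicate 4, P14 KO replicates 4 and 6, and P14 WT replicate 5), against −0.72 to 0.62 in the other 11. Those 4 libraries had the 4 lowest values of Calb1 (787, 1295, 1338 and 2507) in the grade. Striatal projection neuron genes stood at 3.33 and 2.56 in P25 WT replicates 1 and 2, which had the highest values of Pcp4 (931 and 550) and Calb1 (5101 and 5800). Itpr1 followed in part. Its lowest values of the grade were 3135 in P14 WT replicate 5, 4613 in P14 KO replicate 4 and 4943.5 in P14 KO replicate 6. In P25 KO replicate 4 it was 12609, above its median, which is taken mostly over P14 libraries. The part of these regions in the marker values was not tested.

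Transcription factors of Purkinje cells followed the same grades. Lhx1, a LIM homeobox gene, had medians of 10.5 and 2496, and Skor2, a corepressor gene, ran from 0 to 4.5 in the bottom grade and from 246 to 571 in the top grade. Of the 7 listed factors, 4 reached 10-fold and 4 did not overlap, beside 1.35% and 10.9% of all genes. Foxp2 went the other way, with a median of 849.7 in the bottom grade and 339.5 in the top grade. Rora, the gene of the receptor whose half-site letters were searched above, had medians of 1757 and 12837, or 7.3-fold, with no overlap. Its binding to the marker promoters was not tested.

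The mGluR1 pathway and parallel fibre synapse list divided by gene. Of the 11 listed, 4 reached 10-fold and 8 did not overlap, beside 1.35% and 10.9% of all genes. The scaffold gene Homer3 (26.8-fold) and the glutamate transporter gene Slc1a6 (23.7-fold) were among the 4. The G protein gene Gnaq, known from forebrain neurons too, had a ratio of 0.84. Of 7 calcium handling genes 2 reached 10-fold, the pump gene Atp2a3 (41.2-fold) and parvalbumin, Pvalb (23.1-fold). Of 7 inhibitory transmitter and other genes 1 did, and Gad2, which makes the transmitter GABA, had a ratio of 0.62. In granule neurons' own list 11 of 14 reached 10-fold, beside 5 of the 8 markers. That list holds Cbln3, which set the grades, and other genes of the same cell type, so its count carries no test.

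Over all 24 libraries, the genes whose log2 values were most like Pcp2 by Pearson's r included Bcl2l15 (0.992), Cbln3 (0.991), Sycp1 (0.991), Gabra6 (0.989), Arhgef33 (0.986), Gm2694 (0.986), Skor2 (0.983), Dao (0.980) and Gm43610 (0.980). The 24 points fall into the Cbln3 grades and share their library and depth, so r describes likeness to that grading. Among them Gabra6, a granule neuron GABA receptor subunit, went from a median of 1.1 to 22895, and Sycp1, known for its part in meiotic chromosome pairing, from 0 to 713.5. Gm2694 overlaps Cbln1 on the opposite strand.

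Of the other markers Car8 was nearest to Pcp2 (r 0.982, rank 8), followed by Ppp1r17 (0.969, rank 34) and Rgs8 (0.955, rank 92), and Pcp4 was farthest (0.589, rank 4077). Genes most like Car8 itself included Slc1a6 (0.988), Casq2 (0.985), a calsequestrin gene, Gm2694 (0.985) and Sycp1 (0.985). Ppp1r17 was most like Tbc1d4, Nrk, A2m, Zic2 and Plekhd1 (0.981 to 0.985). Rgs8 was most like Dusp10, Mpp3, Gpr37l1, Megf11 and Psg16 (0.986 to 0.989), and Itpr1 most like E330009J07Rik, 5830444B04Rik, Sptb, Cmya5 and Syt12 (0.973 to 0.986).

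Markers were also set against Cbln3 within each library, a ratio that does not depend on depth. Pcp2 was 4.91% to 7.05% of Cbln3 in the 6 top-grade P25 libraries. It was 15.1% in P14 WT replicate 3 and 11.4% in P14 KO replicate 1. All 8 markers were a higher percentage of Cbln3 in both P14 libraries than in each of the 6 top-grade P25 libraries. For Car8 the values were 161% and 126%, against 72.9% to 103%. Cbln3 set the grades and is also the divisor here. Cbln3 was lower in these P14 libraries (6083 and 10664) than in the top grade, and its part in the higher percentages was not tested. These P14 libraries also had 5.55 and 4.81 on the hindbrain list, where the 6 top-grade libraries ran from −0.52 to 5.05, and age and tissue makeup cannot be told apart with 2 libraries. The P25 library of their own grade, WT replicate 3, lay within the range of the top-grade P25 libraries only for Ppp1r17. It was 15.8% of Cbln3 there, against 10.1% to 17.2% in the top grade. Pcp2 was 7.7% and Car8 108.04% of Cbln3 in WT replicate 3, above the top grade and below both P14 libraries. Calb1 (184%), Itpr1 (598%), Rgs8 (232%), Icmt (143%) and Pcp4 (15.9%) lay above both P14 libraries. That library also had 0.94 on the cortex and hippocampus list, against −2.26 and −1.30 in the P14 libraries.

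Against Car8, the members kept nearly fixed proportions in the 6 top-grade libraries. Itpr1 was 222.7% to 241.9% of Car8 (coefficient of variation 3.15%) and Icmt 38.9% to 43.0% (3.79%). Calb1 (6.35%), Pcp2 (6.46%), Rgs8 (7.37%) and Ppp1r17 (9.2%) varied somewhat more, and Pcp4 most (32.8%). For Pcp4 the spread came mostly from KO replicate 2, at 2.49% of Car8, against 1.21% to 1.37% in the remaining top-grade libraries. The markers other than Pcp4 thus went up and down together from library to library, and Pcp4 departed from them mainly in KO replicate 2.

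In the P14 libraries some of these proportions lay elsewhere. Itpr1 was 171% and 192% of Car8, below all 6 top-grade P25 libraries. Pcp2 was 8.98% and 9.36% of Car8, above the 6.0% to 7.17% of those libraries, and Calb1 was 82.6% and 94.7%, above 58.1% to 68.5%. Icmt, at 39.1% and 42.4%, lay within the range of the top grade. In P25 WT replicate 3, Pcp2 was 7.13% of Car8, within the range of the top grade, but Itpr1 was 553%, Calb1 170% and Icmt 133%, above all 8 of these libraries.

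**Figure D3:**
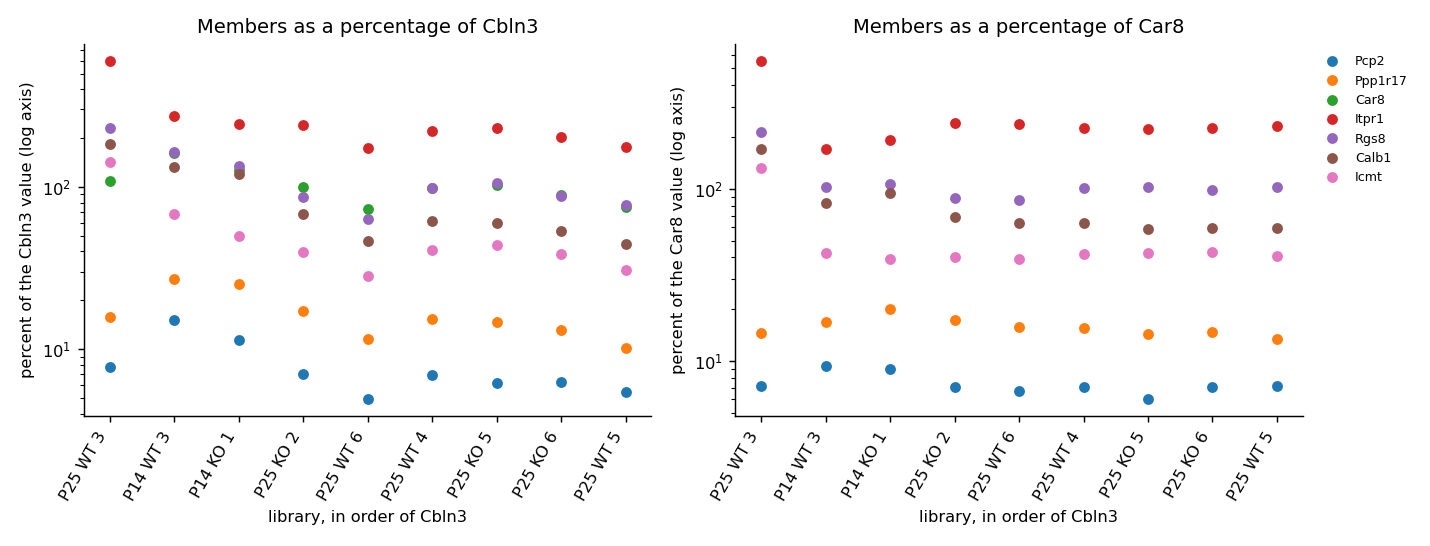
The markers except Pcp4 as a percentage of Cbln3 (left) and of Car8 (right), both on log axes, in the 9 libraries with Cbln3 above 100, ordered by Cbln3. Pcp2 falls from 15.1% of Cbln3 in P14 WT replicate 3 to 4.91% to 7.05% in the 6 libraries of the top grade, where the percentages of Car8 are nearly level.

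KO was then compared with WT in the 6 top-grade P25 libraries, 3 of each genotype, to ask whether Purkinje cell markers change without Shank2. None of the markers passed: 0 of 8 were called by limma at an adjusted p of 0.05, as did 0% of the 17641 genes in the fit. At an unadjusted p under 0.05, limma had 400 genes (2.27%), and 0 of the markers. On whole reads recovered from the table, edgeR called 0 genes (532 unadjusted) and limma-voom 0 (392 unadjusted), while DESeq2 called 1, or 0.00567%, which was Shank2 (681 unadjusted). Shank2 was 13358, 12335 and 10131 in WT replicates 4, 5 and 6 and 2217, 5153 and 4475 in KO replicates 2, 5 and 6, or 33.1% of the WT mean in KO. Its log2 difference was −1.68 (SE 0.31, limma adjusted p = 0.953; 2-sided exact permutation p = 0.1, the smallest that 20 arrangements allow).

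Pcp2 was 3815, 3314 and 2652 normalised reads in WT replicates 4, 5 and 6 and 1773, 3470 and 3561 in KO replicates 2, 5 and 6. KO replicate 2 was the lowest of the 6, and the other 2 KO libraries lay between the WT values. The means were 3260 ± 583 in WT and 2935 ± 1007 in KO (SD, n = 3). The log2 difference (KO minus WT) was −0.20 (SE 0.28, limma adjusted p = 0.953; exact permutation p = 0.7).

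Itpr1 was 122725, 107724 and 93284 in WT and 60300, 128732 and 114543 in KO, a log2 difference of −0.16 (SE 0.31). Car8, its binding partner, was 54140, 46256 and 39407 in WT and 24930, 57797 and 50664 in KO, a log2 difference of −0.14 (SE 0.32). For both, KO replicate 2 was lowest and KO replicate 5 highest, with all WT libraries between. Calb1 was 34249, 27265 and 25059 in WT and 17080, 33572 and 30144 in KO, a log2 difference of −0.15 (SE 0.27). Here WT replicate 4 was the highest.

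Rgs8 was 54426, 47115 and 34119 in WT and 21910, 58972 and 49852 in KO, a log2 difference of −0.15 (SE 0.38). Icmt was 22624, 18839 and 15342 in WT and 9978, 24561 and 21807 in KO, a log2 difference of −0.10 (SE 0.34). These had the widest spread of the 8 between KO libraries. Ppp1r17 was 8430, 6176 and 6243 in WT and 4331, 8264 and 7437 in KO, a log2 difference of −0.10 (SE 0.26). Pcp4 was 709.5, 634.7 and 537.9 in WT and 620.1, 696.7 and 622.8 in KO, a log2 difference of 0.05 (SE 0.13), and its lowest library was a WT one.

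So 7 markers had lower fitted levels in KO and 1 higher, where 52.8% of all genes had lower ones; the median was −0.15 over the markers and −0.01 over all genes. Limma adjusted p-values of the 8 ran from 0.953 to 0.970 and exact permutation p-values from 0.7 to 0.9. WT and KO ranges overlapped for all 8; 3.08% of genes had every KO library below every WT library and 4.75% every KO library above. The 95% intervals for the KO to WT ratio were 0.544 to 1.385 for Pcp2, 0.581 to 1.406 for Calb1, 0.543 to 1.482 for Itpr1, 0.533 to 1.535 for Car8 and 0.481 to 1.694 for Rgs8, so ratios well away from 1 are not excluded. Pcp4 had the narrowest interval, 0.839 to 1.279. P-values measure the spread between these libraries.

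**Figure D4:**
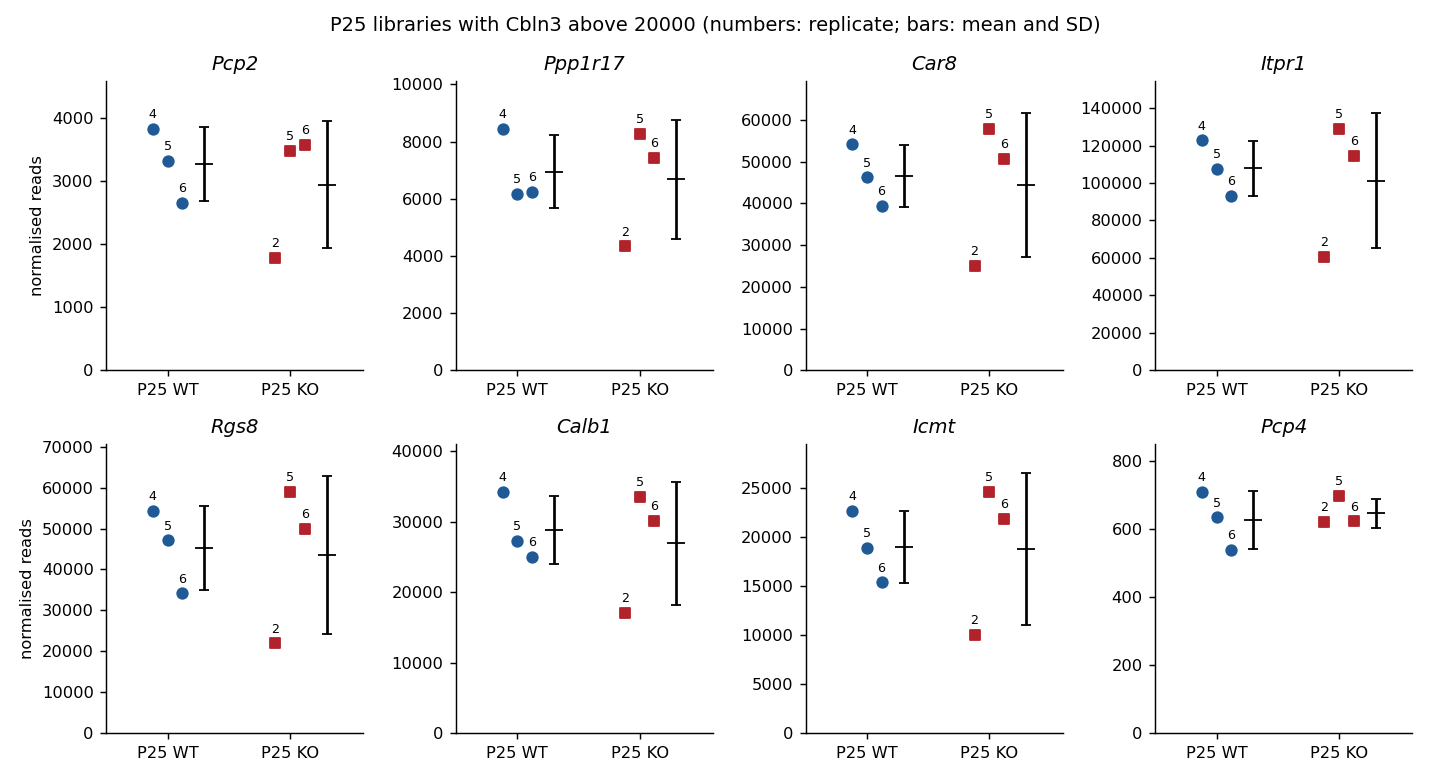
Normalised reads of each marker in the 3 WT and 3 KO libraries of P25 with Cbln3 above 20000; numbers are replicates, and black bars the mean and SD. KO replicate 2 is the lowest library for every marker except Pcp4, and KO replicates 5 and 6 both lie above the middle WT library for 7 of 8.

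The direction of the differences depended on single libraries, most of all on KO replicate 2. This library held 44.8% to 59.2% of the mean of the other 5 for the 7 markers other than Pcp4, and 96.8% for Pcp4. It also had less of the granule list (2.93, against 3.66 to 3.91 in the other 5) and more of the hindbrain list (5.05, against −0.52 to 1.09) and the oligodendrocyte list (1.57, against −0.28 to 0.54), and it is the only first-batch library of the 6. WT replicate 6, the lowest or next to lowest WT library for all 8 markers, had 4.51 on the choroid plexus list, against −3.15 to 1.41 in the other 5. The part of these tissues in the marker values was not tested.

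Without KO replicate 2, which leaves the 5 second-batch libraries, all 8 markers had higher fitted levels in KO, with a median log2 difference of 0.18, and 0 passed. KO libraries then held 105% (Pcp4) to 122% (Icmt) of the WT mean. KO replicate 5 lay above all 3 WT libraries for 4 markers (Itpr1, Car8, Rgs8 and Icmt), and KO replicate 6 for none of the 8. The 95% intervals of the ratio included 1 for all 8, from 0.857 to 1.386 for Pcp2 and from 0.944 to 1.623 for Icmt. Shank2 kept a log2 difference of −1.30 in these 5 libraries. Without WT replicate 4 instead, 3 markers were higher and 5 lower in KO, with a median of −0.008. The labels give same-numbered WT and KO libraries a shared mouse code without saying what it stands for. Within the same-numbered pairs of the top grade, replicates 5 and 6, all 8 markers were higher in KO in both pairs. The share of all genes higher in KO in both pairs was not computed, and the markers are not independent of each other, so no difference is read from this.

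**Figure D5:**
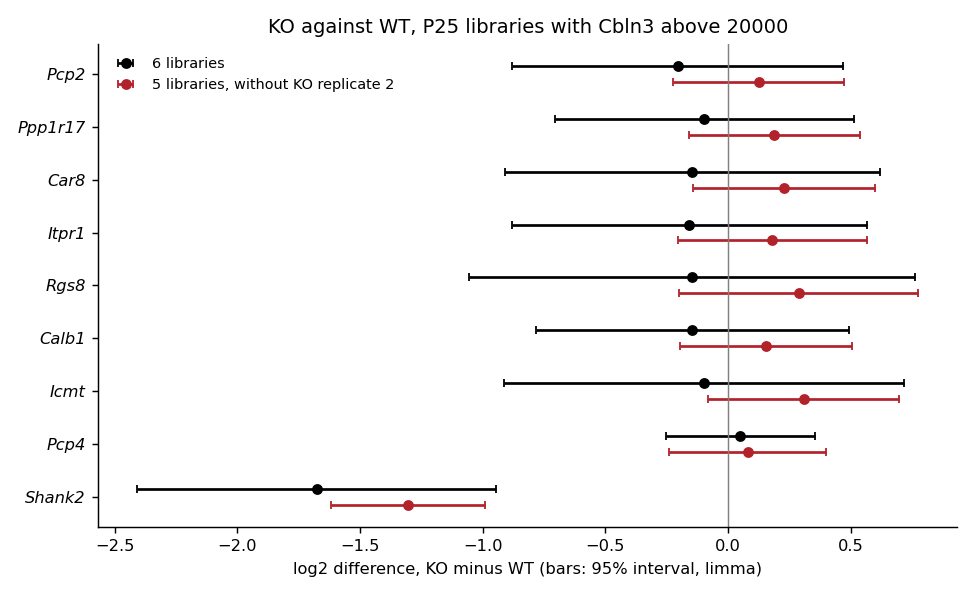
Log2 difference (KO minus WT) of the 8 markers and Shank2 with 95% limma intervals, in the 6 libraries (black) and in the 5 without KO replicate 2 (red). The marker intervals include 0 in both, with the points at −0.20 to 0.05 in black and all above 0 in red, while Shank2 lies at −1.68 and −1.30.

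Set against Car8 in the same library, no marker separated the genotypes over the 6 libraries. Pcp2 was 6.98% ± 0.23 of Car8 in WT and 6.71% ± 0.62 in KO (SD, n = 3). Itpr1 was 232% ± 5.07 in WT and 230.2% ± 10.2 in KO, and Icmt was 40.5% ± 1.45 in WT and 41.9% ± 1.61 in KO. The ranges of WT and KO overlapped for these and for Calb1, Rgs8, Ppp1r17 and Pcp4. Against Cbln3, Pcp2 was 5.75% ± 1.04 in WT and 6.51% ± 0.47 in KO, also overlapping. KO replicate 2 was not low on these scales: Pcp2 there was 7.05% of Cbln3, the highest of the 6, and 7.11% of Car8. Without it, KO replicates 5 and 6 lay below all 3 WT libraries for Itpr1 (222.7% and 226.1% of Car8, against 226.7% to 236.7%) and Pcp4 (1.21% and 1.23%, against 1.31% to 1.37%). They lay above them for Icmt (42.5% and 43.0%, against 38.9% to 41.8%). Pcp2, Calb1, Rgs8 and Ppp1r17 still overlapped. The share of all genes that separate in this way was not computed, and so few libraries can separate easily. These ratios were not tested, and no difference is read from them.

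The wider Purkinje lists gave the same count, 0 passing of 7 transcription factors, 11 mGluR1 and parallel fibre synapse genes, 7 calcium handling genes and 7 inhibitory transmitter and other genes. Fitted differences were lower in KO for 5 of 7, 10 of 11, 7 of 7 and 5 of 7, with medians of −0.18, −0.17, −0.20 and −0.06. Of all genes 52.8% were lower. The granule neuron list was lower for 13 of 14, with a median of −0.34, so the direction was not particular to Purkinje genes. KO replicate 2 was the lowest library for every calcium handling gene and for every synapse gene but Gnaq. All 11 synapse genes lay between −0.50 and 0.02 on the log2 scale.

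Foxp2, Plcb3 and Aldoc had the smallest p of their lists, and Ebf2 came next to Foxp2 in its list. Foxp2 was 326, 284 and 248 in WT replicates 4, 5 and 6 and 575, 381 and 353 in KO replicates 2, 5 and 6. Every KO library lay above every WT library, as in 4.75% of all genes. Its log2 difference was 0.58 (SE 0.21, limma unadjusted p = 0.0281, adjusted p = 0.953). Leaving out each library in turn gave 0.37 to 0.72. The level of Foxp2 was 849.7 at the median of the libraries with Cbln3 under 100, and the striatal list stood at −0.87, −2.10 and −2.71 in the KO libraries and at −2.87 to −2.42 in the WT libraries.

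Ebf2, another of the transcription factor genes, was 348, 210 and 254 in WT and 289, 429.5 and 423 in KO, a log2 difference of 0.50 (SE 0.24). Aldoc, an aldolase gene that astrocytes express too, was 53211, 59612 and 71190 in WT and 38774, 42538 and 58355 in KO, a log2 difference of −0.41 (SE 0.20). Plcb3, a phospholipase C gene, was 2457, 3880 and 3140 in WT and 1576, 2366 and 2831 in KO, a log2 difference of −0.50 (SE 0.25). The genotypes overlapped for all of these, and limma adjusted p was 0.953 for each. Their signs held when each library was left out in turn, with ranges of 0.33 to 0.70 for Ebf2, −0.58 to −0.29 for Aldoc and −0.69 to −0.26 for Plcb3.

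Over all libraries of an age, with a batch term, the markers gave no call either. At P25, 0 of 8 passed limma (0% of 18267 genes; 98, or 0.536%, at an unadjusted p under 0.05), and all 8 had lower fitted levels in KO, where 50.3% of genes did. DESeq2 called 0 of the 8 (0.0219% of genes), and both DESeq2 and edgeR gave the opposite direction, with 7 of 8 higher in KO and medians of 0.34 and 0.35. The median log2 difference was −0.29 (−0.58 to −0.09), with SEs of 0.25 to 1.67. Pcp2 had −0.40 (SE 1.50), with 3 of 6 WT and 3 of 6 KO libraries in the top Cbln3 grade. Within the first batch alone the median of the markers was 0.535, and within the second −1.09, so the direction did not hold within batches. The first batch has its 1 top-grade library in KO, and the second has 3 in WT and 2 in KO.

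At P14, 0 of 8 passed (0% of 18267 genes; 554, or 3.03%, unadjusted; 0.00547% by DESeq2, again without a marker), and all 8 had higher fitted levels in KO, where 50.7% of genes had lower ones, with a median log2 difference of 0.14 (0.02 to 0.26). Pcp2 had 0.26 (SE 1.50), and without KO replicate 1, one of the P14 libraries with Cbln3 above 100, the median of the markers was −0.24. Within batches the P14 median was 0.14 in the first and 0.06 in the second. The difference of the KO effects between the ages passed for 0 of the 8 (limma interaction, adjusted p = 1 for each, smallest unadjusted p 0.134, for Pcp4).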

How the data were processed

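RNA-seq values of 24 brain libraries were used, in 4 groups of 6 by genotype and age. Trimmomatic 0.35, TopHat2 2.1.0, HTSeq, DESeq2 and the build GRCm38 are named per the submitters' processing notes; the annotation, strand setting and other versions are not given in the sources used. The authors deposited a normalised signal: reads of each gene divided by 1 size factor per library (0.825 to 1.223), as read from the values: 100% of nonzero values came out as whole reads within 0.01. Totals were 27552844 to 40787586 reads, 24574 to 27475 genes had a read, and mitochondrial genes took 3.01% to 4.62%. Symbols were matched for 45143 (98.0%) identifiers; 0 sample columns were left unused.

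KO and WT were compared with limma 3.58.1 (R 4.3.3) with a trend on log2(value + 1), for genes with a mean of at least 10 in the libraries fitted; differences on this scale understate the change of low genes. Benjamini-Hochberg adjustment ran over all genes, and calls needed an adjusted p under 0.05. The 6 top-grade libraries were fitted alone; fits over all libraries held 4 group means and a batch term per age. Alternatives were edgeR 4.0.16 (quasi-likelihood), DESeq2 1.42.0 and limma-voom on recovered reads, TMM scaling, other filters and pseudocounts, other Cbln3 limits, Cbln3 or granule covariates, each batch alone, a replicate block and leaving out each library. For single genes in the top grade a 2-sided exact permutation test was added. The fits were tested on simulated data.

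Members, lists, Cbln3 limits and tests were chosen with earlier results of these data known. Genes named are the 8 markers, Shank2 and Cbln3 as checks, the 10 genes most like Pcp2 by Pearson's r, the 5 for each other marker of at least 10-fold between grades, list genes given for the grades, chosen after their values were seen, and, for KO against WT, up to 4 genes per list with the smallest p. Results of some single genes are left out of the text. Regional lists are given as mean log2 levels relative to their mean over all libraries. Promoter windows come from RefSeq; protein sequences were not used here.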

Additional observations from a re-analysis of the deposited data

Results flagged for a closer look

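In groups of 6 libraries, a value was singled out where its gap to the nearest other library was too large a share of the range of the group by Dixon's limit, which chance does in about 1 in 20 groups. Of 32 combinations of marker and group, 12 met this, all as the highest library. They fall in P14 WT replicate 3 and P14 KO replicate 1, the P14 libraries with Cbln3 of 6083 and 10664. In P14 WT replicate 3 the values were 917 for Pcp2, 9801 for Car8, 1647 for Ppp1r17, 10014 for Rgs8 and 4159 for Icmt. In P14 KO replicate 1 they were 1211 for Pcp2, 12768 for Calb1, 25897 for Itpr1, 13485 for Car8, 2689 for Ppp1r17, 14381 for Rgs8 and 5279 for Icmt. The 12 values come from 2 libraries and are not independent of each other. No P25 group met the limit; in each, 3 of 6 libraries are in the top Cbln3 grade.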

How the results depend on the processing

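In the 6 top-grade P25 libraries, 0 of 8 markers passed under every one of the 20 alternatives run. The sign of the differences did change, for Pcp4 only when WT replicate 6 or KO replicate 5 was left out. For the others, in the order Pcp2, Calb1, Itpr1, Car8, Ppp1r17, Rgs8 and Icmt, the log2 differences were 0.25, 0.28, 0.28, 0.34, 0.34, 0.44 and 0.45 with the replicate block, 0.13, 0.15, 0.18, 0.23, 0.18, 0.30 and 0.31 with Cbln3 as a covariate, 0.14, 0.16, 0.18, 0.23, 0.19, 0.30 and 0.32 with the granule list as a covariate, and 0.087, 0.15, 0.13, 0.15, 0.20, 0.14 and 0.19 with the granule list subtracted. They were 0.12, 0.15, 0.18, 0.23, 0.19, 0.29 and 0.31 with Cbln3 above 50000, which leaves out KO replicate 2, and 0.83, 0.53, 0.57, 0.90, 0.95, 0.61 and 0.52 with Cbln3 above 2000, which adds WT replicate 3. Their medians over all 8 were 0.31, 0.18, 0.19, 0.15, 0.18 and 0.59. Leaving out each library gave ranges of −0.38 to 0.12 for Pcp2, −0.056 to 0.14 for Pcp4, −0.33 to 0.15 for Calb1, −0.37 to 0.18 for Itpr1, −0.38 to 0.23 for Car8, −0.28 to 0.19 for Ppp1r17, −0.43 to 0.29 for Rgs8 and −0.34 to 0.31 for Icmt, with a median of −0.35 to 0.18. Shank2 was the 1 gene called by DESeq2 and with the granule covariate (log2 differences of −1.60 and −1.30). Over all P25 libraries, Pcp2 had 1.27 by edgeR, 1.32 by DESeq2, 1.57 in the first batch alone and 0.35 with Cbln3 as a covariate, and −1.54 to 0.93 when each library was left out, where the median of the markers ran from −0.70 to 0.43 (without KO replicate 4). DESeq2 called 4 genes at P25, Shank2 among them (−1.29), and 1 at P14, as did the Cbln3 covariate at P14 (1 gene), with no marker among them. At P14, leaving out each library gave −0.65 to 1.13 for Pcp2 and −0.24 to 0.32 for the median. The cause of these changes was not tested. Whether replicate numbers pair the libraries was not settled. Same-numbered WT and KO libraries correlated in their deviations from group means at −0.28 to 0.50 at P14 and −0.60 to 0.86 at P25. The correlation was above 0.1 in 1 of 6 pairs at P14 and in 4 of 6 at P25. These deviations also hold differences of batch and Cbln3 grade, so they cannot decide the question. The labels' mouse codes, shared by same-numbered libraries, are not said to mark litters. The replicate block changed no count of markers called at an adjusted p (0 of 8 in each comparison). In the top grade, however, limma gave 5 of 8 markers an unadjusted p under 0.05 with the block, beside 952 of all 17641 genes. With the granule covariate it gave 2 of 8, beside 560 of 17641 genes, and as reported 0 of 8, beside 400. All 8 markers were higher in KO in both alternatives. The markers go up and down together, so they are not independent counts. The block rests there on the pairs of replicates 5 and 6. The ratios between Cbln3 grades kept their size within the spread of libraries in all 72 values of single markers. With 3 libraries a group in the top grade, the spread between libraries sets the intervals.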
